A study of Mus musculus with 3 samples.

Results

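The genes described here are 34 genes of the cholesterol and fatty acid synthesis programme, taken by gene symbol from the 55536 mouse genes of the deposited gene tables. All 34 symbols were found there. They were sorted by what their products do into 5 regulators of the programme, 7 enzymes from acetoacetyl-CoA to farnesyl diphosphate, 11 enzymes from squalene to cholesterol, 3 enzymes that make fatty acids, 5 desaturases and elongases, and 3 proteins that esterify or export cholesterol. PolyA-selected RNA was sequenced from primary CD4+ alpha-beta effector memory T cells of 1 adult male C57BL/6J mouse aged 7 months, with no treatment or genetic change named in the labels. There were 3 libraries, which the labels call technical replicates 1, 2 and 3 of the same biological replicate. They form 1 group without a control, so the data give levels and the spread between libraries, and any p-value below measures technical differences between libraries of this mouse. The values are in TPM, a share of all transcripts corrected for transcript length on a fixed total, and are given as mean ± SD over the 3 libraries unless each library is listed.

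Cells make cholesterol and fatty acids from acetyl-CoA. The genes of both routes share a control circuit: SREBP proteins wait in the endoplasmic reticulum membrane with their escort SCAP, INSIG proteins hold them there while sterol is plentiful, and when sterol falls SREBP moves to the Golgi, is cut and enters the nucleus to switch the genes on. In T cells the programme is known to be raised on activation, when membrane has to be made for cell division. LXR receptors work against it by raising the exporters ABCA1 and ABCG1.

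The libraries held 16251564, 14878641 and 14152590 estimated counts on mouse genes, so that 3 counts, used as the limit that a count of 0 allows, correspond to 0.185 to 0.212 CPM, the same share without the correction for length. The CD4 T cell part of the label showed in the markers. The effector memory part was not tested, since the data hold no other T cell group. Cd4 was at 476 ± 4.74 TPM and Cd3e at 679 ± 29.2 TPM, whereas the B cell list of 4 genes summed to between 0.86 and 1.32 TPM and the macrophage and neutrophil list of 5 genes to between 0.79 and 1.47 TPM. The 4 adipocyte markers summed to between 0.17 and 2.12 TPM, and the 5 markers of hepatocytes, enterocytes and keratinocytes to at most 0.54 TPM, with Krt5 and Krt14 at 0 counts. Of the CD8, gamma-delta and NK list, Trdc had 0 counts and Cd8a had 3 in all, while Cd8b1 stood at 4.16 ± 0.89 TPM. The 4 proliferation genes summed to between 10.6 and 13.7 TPM.

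Nearly all of the programme was present in these cells. Of the 34 genes, 32 reached 1 TPM in every library, which was 94.1%, beside 45.5% of all 22028 protein-coding genes. The exceptions were Scd1, with 0 counts in every library, and Abca1. The median over all 34 genes, Scd1 and Abca1 included, was 26.7 ± 2.65 TPM. The median of the 10013 protein-coding genes that reached 1 TPM in every library was 27.9 ± 0.75 TPM. The programme thus lay near the middle of the genes these cells express, although only the second set was limited to such genes. Only Elovl5, Acly and Srebf2 passed a mean of 100 TPM, which was 8.82% of the genes beside 7.82% of all protein-coding genes. In a bulk sample a low level from fewer cells that use a gene and one from less RNA per cell cannot be told apart.

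**Figure D1:**
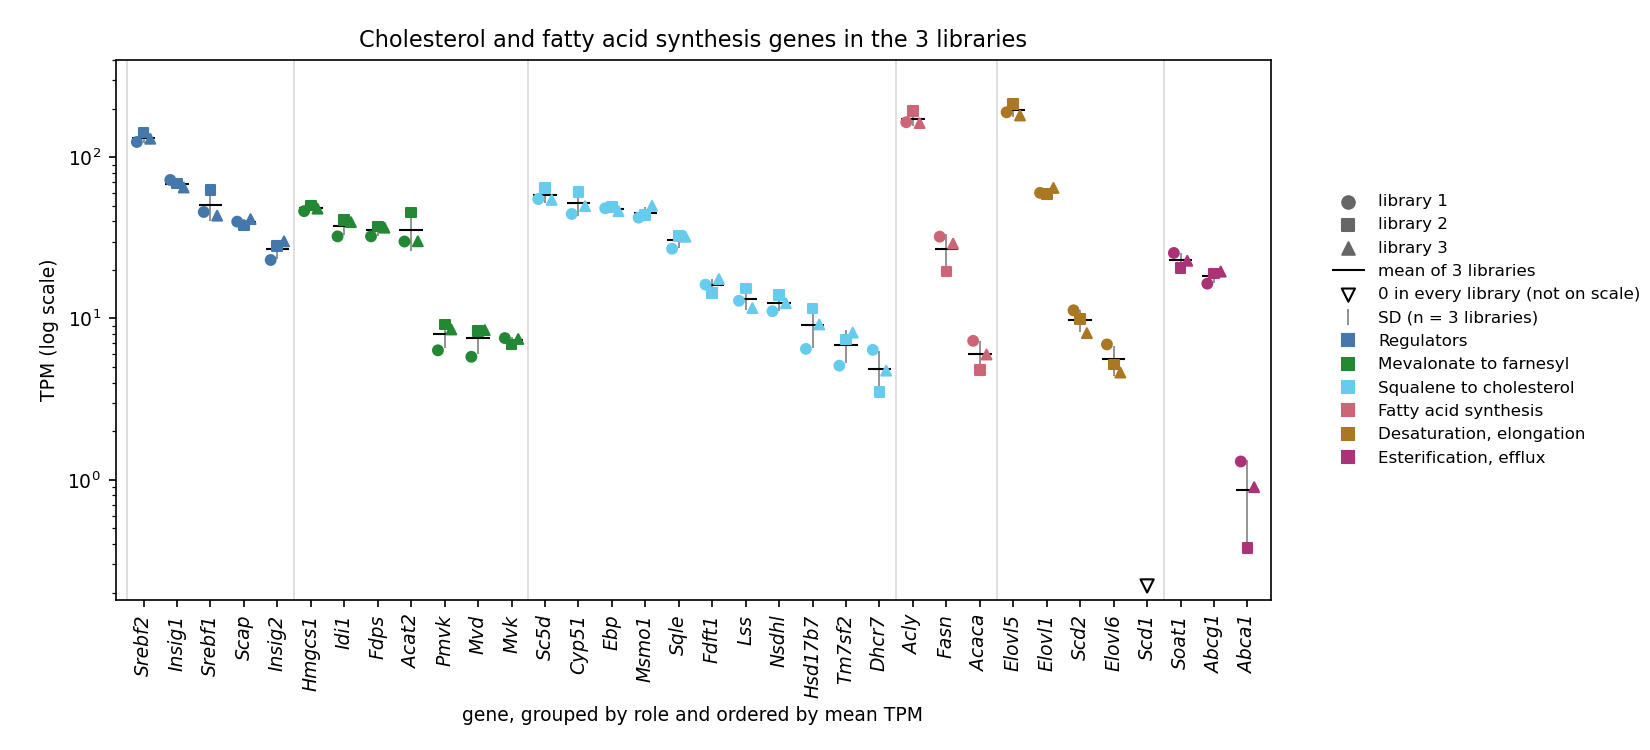
TPM of the 34 genes on a log scale, grouped by role and ordered by mean, with 1 marker per library, a line at the mean and a bar for the SD over the 3 libraries. Elovl5, Acly and Srebf2 stand at the top of their groups above 100 TPM, Abca1 lies near 1 TPM with library 2 lowest, and the open triangle marks Scd1, which was 0 in every library and has no place on a log scale.

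**Figure D2:**
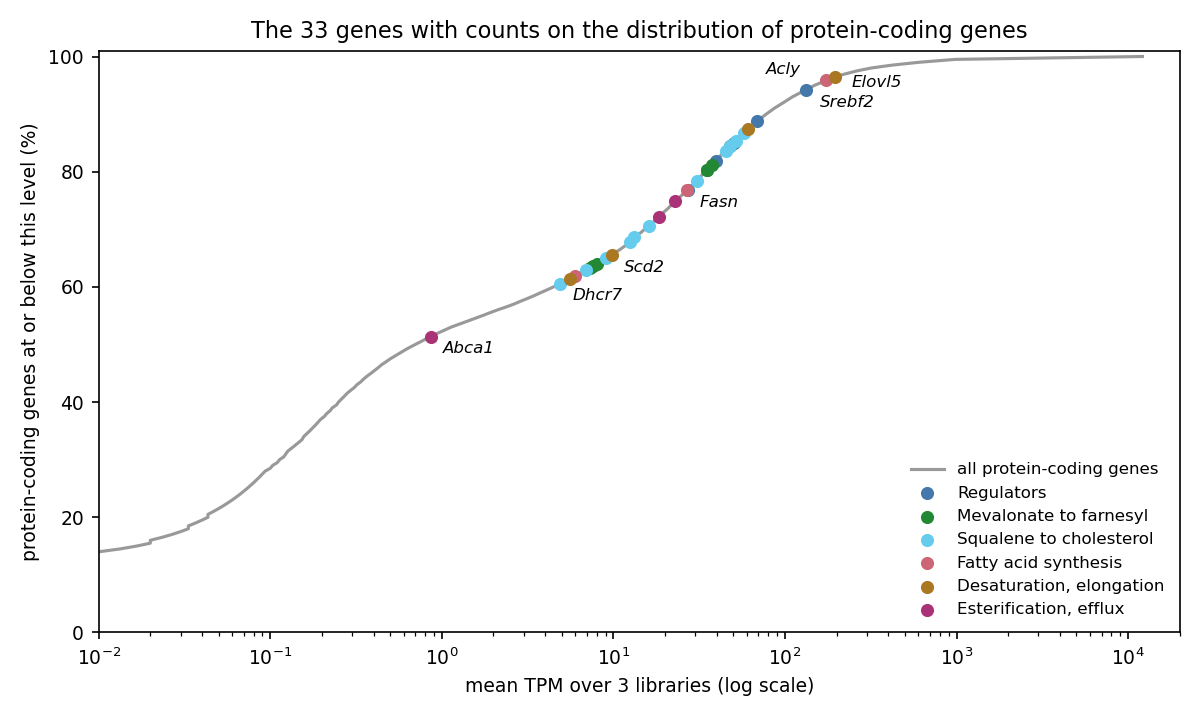
Share of the 22028 protein-coding genes at or below a given mean TPM, with the 33 genes that had counts placed on the curve. Dhcr7, at 4.89 TPM, and Abca1, at 0.86 TPM, are the lowest, and Elovl5, at 195 TPM, is the highest.

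The regulators were led by Srebf2, which encodes SREBP-2, the factor best known for switching on the cholesterol enzymes. Srebf2 (chr15:82147181-82205379, plus strand, mm10) was at 124, 142 and 130 TPM in libraries 1, 2 and 3, above 94.2% of protein-coding genes. Srebf1 (chr11:60199089-60222581, minus strand), which encodes the SREBP-1 forms and is best known for the fatty acid enzymes, was at 45.7, 62.4 and 43.4 TPM. The ranges of the pair did not overlap: Srebf2 was 2.66 ± 0.36 times Srebf1, or 1.40 ± 0.20 on the log2 scale, and library 2 was the highest for both genes.

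Between the anchors that hold SREBP back, Insig1 was the more abundant. Insig1 (chr5:28071363-28078662, plus strand), itself a known SREBP target, was at 72.2, 68.6 and 64.8 TPM. Insig2 (chr1:121304353-121332589, minus strand), which is known to respond less to SREBP, was at 23.0, 28.2 and 30.1 TPM. Every library had more Insig1 than Insig2, by 3.13, 2.44 and 2.16 times. Scap, the escort and sterol sensor, was at 39.8, 37.7 and 41.3 TPM, an SD of 4.63% of its mean and the smallest relative spread of the 5 regulators. The order Srebf2, Insig1, Srebf1, Scap and Insig2 held in all libraries, and no neighbours in it overlapped.

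Most genes of a further list, kept under sterol sensing and outside the 34 genes, were also present. Of its 14 genes, 13 reached 1 TPM in every library, with a median of 37.3 ± 1.22 TPM. The list is not limited to regulators, since its highest gene, Lbr, encodes a sterol reductase of the route itself. The 3 highest were Lbr at 250 ± 33.1 TPM, Rnf145 at 241 ± 26.5 TPM and Nr1h2 at 182 ± 12.5 TPM. Rnf145 encodes an endoplasmic reticulum ubiquitin ligase of the sterol circuit, and Nr1h2 encodes the receptor LXR beta. Nr1h3, which encodes LXR alpha, was at 0.52, 1.21 and 0.52 TPM, and was picked out after its values were seen.

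SREBP is known to bind sterol regulatory elements and E boxes beside NF-Y and Sp1. Promoter sequences, 250 bases before to 50 bases after an annotated start, came from RefSeq on GRCm38.p6 and were matched for 28 of the 34 genes. Fdps, Fdft1, Sqle, Scd1, Scd2 and Abcg1 had none. The sequence upstream of the start is shown for 3 of these 28 genes. They are Hmgcs1, the only one of the 28 that matched the sterol regulatory element searched, Insig1, with an E box, and Fasn, with overlapping CCAAT boxes. Capitals mark matches, on either strand, to the sterol regulatory element TCACNCCAC, to the CCAAT box that binds NF-Y, and to the E box CACGTG. The Insig1 sequence stops where its first annotated GENCODE exon begins. Hmgcs1 is at chr13:119690101-119690350 on the plus strand, Insig1 at chr5:28071162-28071362 on the plus strand and Fasn at chr11:120824548-120824797 on the minus strand.
Hmgcs1: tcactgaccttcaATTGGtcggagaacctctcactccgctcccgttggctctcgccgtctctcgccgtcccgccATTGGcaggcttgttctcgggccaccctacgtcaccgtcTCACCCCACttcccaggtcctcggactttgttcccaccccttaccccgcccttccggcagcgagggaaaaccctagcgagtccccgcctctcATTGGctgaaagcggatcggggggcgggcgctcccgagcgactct
Insig1: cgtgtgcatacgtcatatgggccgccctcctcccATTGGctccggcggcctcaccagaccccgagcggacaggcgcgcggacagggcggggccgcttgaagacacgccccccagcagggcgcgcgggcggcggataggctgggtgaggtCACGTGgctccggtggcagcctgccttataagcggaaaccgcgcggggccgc
Fasn: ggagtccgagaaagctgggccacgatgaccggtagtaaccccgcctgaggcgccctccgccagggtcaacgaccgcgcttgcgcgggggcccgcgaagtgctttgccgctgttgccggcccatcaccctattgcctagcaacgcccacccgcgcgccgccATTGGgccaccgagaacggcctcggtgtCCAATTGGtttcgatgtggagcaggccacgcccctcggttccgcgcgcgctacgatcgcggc
In Hmgcs1 the sterol element runs from base -137 to base -129 before the start, with CCAAT boxes, read as ATTGG on this strand, on both sides of it. In Fasn, 2 CCAAT boxes on opposite strands overlap at -62 to -55. Over the 28 genes, TCACNCCAC was found in 1, or 3.57%, beside 1.44% of all 27025 genes in the table and 1.40% of the 7977 of them that reached 1 TPM in every library. CCAAT was found in 23 of 28, or 82.1%, beside 41.1% of all genes and 43.7% of those expressed genes. CACGTG was found in 7 of 28, or 25%, beside 8.09% of all genes and 12.3% of those expressed genes. The GC box CCGCCC, not marked above, was found in 23 of 28, beside 38.2% of all genes but 70.5% of the expressed genes. Counted per promoter instead, over all 32851 listed, the 4 motifs were found in 1.24%, 37.4%, 7.15% and 35.7%. These are matches of letters in a short window, counted once per gene over its listed promoters, and do not show binding. A missing match does not show that a gene lacks such an element.

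The enzymes that build farnesyl diphosphate fell into a higher and a lower set. Hmgcs1 (chr13:119690379-119708260, plus strand), the cytosolic HMG-CoA synthase, was at 46.3, 50.2 and 47.9 TPM. Idi1, which isomerises isopentenyl diphosphate, was at 37.6 ± 4.63 TPM, Fdps, the farnesyl diphosphate synthase, at 35.3 ± 2.66 TPM and Acat2, the cytosolic thiolase of the first step, at 35.2 ± 8.86 TPM. These last 3 could not be ordered, since their ranges overlapped. The 3 enzymes in the middle of the route were lower: Pmvk, the phosphomevalonate kinase, was at 8.03 ± 1.49 TPM, Mvd, the mevalonate diphosphate decarboxylase, at 7.56 ± 1.53 TPM and Mvk, the mevalonate kinase, at 7.31 ± 0.36 TPM. No library of the higher set fell within the range of the lower set, which had 68 to 129 counts per gene and library.

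Some of these levels rest on reads that other annotated genes, at the same place or elsewhere, could share. Of the 50-base words of its leading transcript, Fdps shared 82.0% with transcripts of 8 other genes, Acat2 shared 45.9% with 2 genes, Acat3 among them, and Idi1 shared 30.5% with 5 genes. The reads were divided among such genes by the authors' estimates. Acat3 was at 1.69, 0.48 and 0.70 TPM and Gm43738, which holds most of the words shared with Fdps, at 0 in each library. Gm43738 lies at the same place as Fdps, with 1124 exon bases shared on the same strand. The processed pseudogene Gm13502, which holds 21.3% of the words of Idi1, was at 2.84, 5.14 and 0 TPM. Hmgcs1 shared 14.5% of its words with Gm48342, an antisense gene at 0.73, 0 and 0.32 TPM. The exons of Gm48342 overlap those of Hmgcs1 over 557 bases. Of the 34 genes, 19 shared no such word with any other gene.

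From squalene to cholesterol the levels spanned from 4.89 to 57.9 TPM, and all 11 genes reached 1 TPM in every library. The highest was Sc5d, the sterol desaturase near the end of the route, at 55.0, 64.3 and 54.3 TPM. It was followed by Cyp51, the lanosterol demethylase, at 44.5, 61.1 and 49.7 TPM, then Ebp, the sterol isomerase, at 48.2, 48.9 and 46.2 TPM, and Msmo1, the methylsterol monooxygenase, at 42.2, 43.8 and 49.9 TPM. Neighbours among these 4 overlapped, so their order is not resolved. Sqle, the squalene epoxidase and a known point of control, came next at 27.1, 32.5 and 32.1 TPM, below every library of Msmo1.

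The other 6 were lower. Fdft1, the squalene synthase that commits farnesyl diphosphate to sterols, was at 16.1 ± 1.58 TPM, and Lss, the lanosterol synthase, at 13.3 ± 1.91 TPM. Nsdhl, a sterol dehydrogenase, was at 12.5 ± 1.47 TPM and Hsd17b7, the ketoreductase that acts after it, at 9.06 ± 2.53 TPM. Tm7sf2, a sterol reductase, was at 5.10, 7.40 and 8.17 TPM. Dhcr7, which reduces dehydrocholesterol to cholesterol, was the lowest at 6.39, 3.52 and 4.75 TPM, or 132, 78 and 80 counts. Each of these overlapped its neighbour in the order from Fdft1 down to Dhcr7. Lbr, the lamin B receptor, catalyses the same sterol reduction as Tm7sf2, and at 233, 289 and 230 TPM it lay far above the range of Tm7sf2.

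Overlapping exons bear on 3 of these values. The strand setting of the counts is not given in the sources used here, which matters where the overlap is on the opposite strand. Exons of Fdft1 share 774 bases with Ctsb on the opposite strand, a gene at 241 TPM. Of the 50-base words of Fdft1-201, read on either strand, 39.8% also occur in 2 other genes, with 25.7% in Ctsb. Exons of Cyp51 share 166 bases with Akap9 on the opposite strand, at 90.8 TPM. Tm7sf2 shares 532 bases with Vps51 on the same strand, at 65.1, 60.5 and 54.3 TPM, which no strand setting would separate. Its leading transcript Tm7sf2-201 shared 0% of its 50-base words with other genes. In all, 12 of the 34 genes had an exon that overlapped another gene, and the part these overlaps have in the levels was not tested.

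The branches that leave the route before sterols were expressed as a whole. All 13 genes of the list of isoprenoid branches reached 1 TPM in every library, with a median of 19.4, 17.00 and 20.6 TPM in libraries 1, 2 and 3. The 3 highest were Ggps1, the geranylgeranyl diphosphate synthase, at 76.3 ± 13.6 TPM, Rabggta, a subunit of the enzyme that prenylates Rab proteins, at 76.2 ± 7.13 TPM, and Fnta, the subunit that the farnesyl and geranylgeranyl transferases share, at 62.8 ± 8.54 TPM.

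Fatty acid synthesis was uneven along its 3 steps. Acly (chr11:100476353-100528000, minus strand), which makes cytosolic acetyl-CoA from citrate for both fatty acids and sterols, was at 165, 193 and 163 TPM, above 95.9% of protein-coding genes. Fasn (chr11:120805846-120824547, minus strand), the fatty acid synthase, was at 32.2, 19.6 and 29.1 TPM. Acaca (chr11:84129672-84401651, plus strand), the acetyl-CoA carboxylase that feeds it, was at 7.27, 4.77 and 5.98 TPM. The 3 ranges were separate, and library 2 was the highest for Acly but the lowest for Fasn and Acaca.

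Among other genes that make or modify fatty acids, 13 of 25 reached 1 TPM in every library, with a median of 1.95 ± 0.44 TPM. The 3 highest were Tecr, the enoyl-CoA reductase of chain elongation, at 249 ± 27.9 TPM, Hacd3, a hydroxyacyl-CoA dehydratase of the same cycle, at 91.1 ± 2.87 TPM, and Cyb5r3, which passes electrons to the desaturases, at 79.4 ± 7.68 TPM.

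The desaturases and elongases ran from 0 counts to the highest level of the 34 genes. Elovl5 (chr9:77917364-77984519, plus strand), which elongates polyunsaturated fatty acids, was the highest of all 34 genes at 190, 215 and 181 TPM. Elovl1, which makes very long saturated chains, was at 60.1, 59.0 and 64.4 TPM. Elovl6, which extends palmitate to stearate, was at 6.91, 5.18 and 4.62 TPM. No ranges of these 3 elongases overlapped.

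Of the stearoyl-CoA desaturases Scd1 and Scd2, which make oleate from stearate, only Scd2 was detected at this depth. Scd2 (chr19:44293674-44306864, plus strand) was at 11.2, 9.94 and 8.11 TPM, from 605, 476 and 386 counts. Scd1 (chr19:44394455-44407879, minus strand), the copy known as the main one of liver and fat, had 0 counts in all 3 libraries, which allows up to 0.157, 0.176 and 0.178 TPM at 3 counts per library. That limit takes an effective length of 1921 bases for Scd1. Set against it, Scd2 was at least 71.6, 56.4 and 45.7 times higher in libraries 1, 2 and 3. These limits cover counting error only. They would differ at another length, and the Scd1 transcripts run from 329 to 4832 bases. The further copies Scd3 and Scd4, added after their values were seen, were at 0.13 ± 0.07 TPM and 0.32 ± 0.19 TPM.

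The coding sequences of Scd1 and Scd2 are close, but few of the 50-base words of Scd2 occur in Scd1. The coding sequences of Scd1-201 and Scd2-201, taken from the GENCODE M21 transcripts, have 1065 and 1074 bases and are 89.6% identical over 1074 aligned columns, with a longest identical run of 147 bases. Of the 50-base words of Scd2-201, 2.68% also occur in Scd1. The 99 bases in which they differ most lie in exon 2 of 6 in both genes, at chr19:44406612-44406710 on the minus strand for Scd1 and at chr19:44294963-44295061 on the plus strand for Scd2, and are shown with the 30 differing bases in capitals.
Scd1: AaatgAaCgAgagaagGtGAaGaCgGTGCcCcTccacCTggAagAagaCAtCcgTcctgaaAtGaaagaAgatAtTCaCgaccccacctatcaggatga
Scd2: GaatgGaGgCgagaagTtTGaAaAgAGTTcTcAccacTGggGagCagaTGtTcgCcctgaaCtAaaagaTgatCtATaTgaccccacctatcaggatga
In the GENCODE M4 table, a separate set of gene counts for the same libraries, Scd1 had 0, 0 and 2 counts beside 115, 79 and 78 for Scd2.

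Of the proteins that dispose of cholesterol, Soat1 and Abcg1 were near 20 TPM and Abca1 near 1 TPM. Soat1, which stores cholesterol as esters, was at 25.5, 20.5 and 22.8 TPM, and Abcg1 (chr17:31057675-31117988, plus strand), which exports cholesterol to HDL, at 16.4, 19.02 and 19.5 TPM. Abca1 (chr4:53030787-53159895, minus strand), which exports it to lipid-poor apolipoprotein, was at 1.30, 0.38 and 0.90 TPM, from 132, 34 and 81 counts. Abcg1 exceeded Abca1 in every library, by 12.6, 50.1 and 21.7 times, a mean of 4.58 ± 1.00 on the log2 scale. The spread of this ratio came with library 2, where Abca1 was lowest.

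Of 16 other genes that handle cholesterol and acyl chains, 12 reached 1 TPM in every library, with a median of 15.2 ± 2.27 TPM. The 3 highest were Acsl5, an acyl-CoA synthetase, at 87.2 ± 11.2 TPM, Npc2, which carries cholesterol inside lysosomes, at 68.0 ± 1.45 TPM, and Lipa, the lysosomal acid lipase, at 46.2 ± 2.01 TPM. All 3 lay above Soat1 and Abcg1.

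The transcripts behind these levels differed in how far they were annotated as coding. The deposited transcript tables list 204 transcripts of the 34 genes, between 2 and 15 per gene. The ± of a share is the spread between libraries. It leaves out the uncertainty of dividing reads among transcripts, which the posterior SD of a count scores. In 9 of the 33 genes with counts, 1 transcript took at least 80% of the gene's TPM. Those genes were Scd2 and Abca1, with the whole of it, and Nsdhl, Elovl5, Idi1, Sqle, Sc5d, Fdps and Insig1. Over the 31 genes with a mean of at least 5 TPM, the median share of TPM in transcripts annotated as protein coding was 86.9%, beside 84.3% over all 8664 protein-coding genes at that level.

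By mean share of TPM, Srebf2 was the only gene whose leading transcript was not annotated as coding. Srebf2-205, a retained-intron transcript of 1981 bases, took 36.2%, 34.9% and 32.7% of the gene's TPM in libraries 1, 2 and 3. It was followed by Srebf2-203 with 25.4 ± 0.79% and Srebf2-201 with 24.8 ± 4.69%, both coding. By estimated counts, which weight long transcripts, Srebf2-201 led with 38.6 ± 5.38% and Srebf2-205 held 20.8 ± 1.02%. On either scale a sizeable part of Srebf2 reads went to transcripts with no annotated protein, 43.9 ± 1.78% of its TPM and 28.4 ± 2.42% of its counts.

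Ebp, Msmo1, Lss and Srebf1 also had under 60% of their TPM in coding transcripts. Ebp had 44.2 ± 3.84% of its TPM and 51.1 ± 5.02% of its counts in retained-intron transcripts, nearly all in Ebp-202, whose TPM share of 43.3 ± 3.08% overlapped that of the coding Ebp-203 at 43.5 ± 2.89%. Msmo1 had 50.6 ± 0.98% of its TPM and 53.6 ± 1.17% of its counts in coding transcripts, and its processed transcript Msmo1-206 took 34.2 ± 3.36% of TPM beside 46.8 ± 1.16% for the coding Msmo1-201. By counts Msmo1-206 held 24.5 ± 2.26% and Msmo1-201 52.3 ± 1.32%. The retained-intron Ebp-202 was ahead of Ebp-203 in libraries 2 and 3, at 46.2% against 43.6% and 43.6% against 40.6% of TPM, and by counts, at 50.4 ± 4.56% against 24.5 ± 2.14%.

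For Lss and Srebf1 the main coding transcript had a lower share by TPM than by counts. In Lss the retained-intron transcript Lss-205, of 425 bases, took 35.8 ± 10.8% of TPM but 5.38 ± 1.62% of counts, and the coding Lss-201 41.2 ± 5.65% of TPM but 75.8 ± 1.67% of counts. In library 1 Lss-205 was ahead of Lss-201, at 41.7% against 36.6% of TPM. In Srebf1 the coding Srebf1-201 took 47.9 ± 10.1% of TPM and 79.7 ± 12.7% of counts, and the processed transcript Srebf1-204, of 367 bases, 18.7 ± 4.53% of TPM but 2.36 ± 0.69% of counts. TPM corrects for length, so reads on a short transcript weigh more in TPM than in counts. The fragments were 100 to 300 bases, and the part of fragment size in these shares was not tested. Which of the annotated Srebf1 starts corresponds to the SREBP-1a or SREBP-1c form is not stated in the files.

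**Figure D3:**
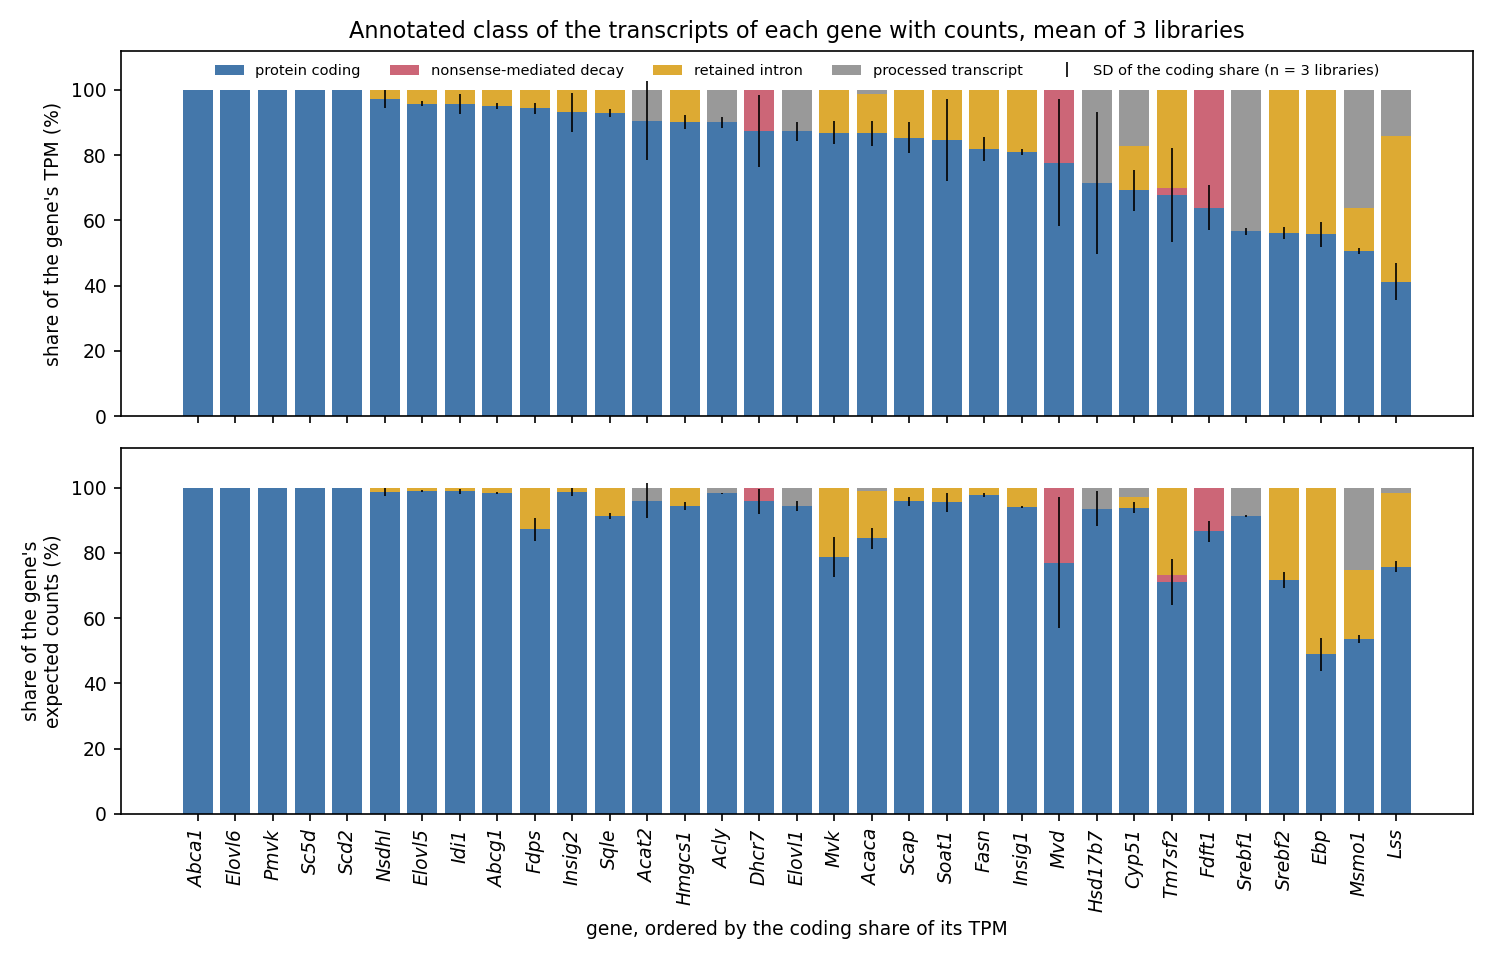
Mean share of each gene's TPM (top) and of its estimated counts (bottom), in percent, by the annotated class of its transcripts, for the 33 genes with counts ordered by coding share of TPM. Bars for Lss, Msmo1, Ebp, Srebf2 and Srebf1 at the right have coding shares under 60% of TPM, and of these only Ebp and Msmo1 stay under 60% by counts; the black lines are the SD of the coding share over 3 libraries.

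Other splits within genes were less stable between libraries. Acat2-201 took 92.5%, 44.8% and 84.8% of its gene's TPM, Mvd-201 took 65.0%, 100% and 68.0%, and Pmvk-204 took 25.6%, 80.5% and 58.7%. Fdft1 gave 36.2 ± 6.87% of its TPM to Fdft1-202, annotated as subject to nonsense-mediated decay, with 63.8 ± 6.87% in the coding Fdft1-201. Insig1 kept a steadier division, with 80.9 ± 0.88% in Insig1-201 and 19.1 ± 0.88% in the retained-intron transcript Insig1-202. By counts Fdft1-202 held only 13.4 ± 3.31% of its gene and Insig1-202 5.95 ± 0.32%. Abcg1 was shared between the coding transcripts Abcg1-201 at 47.7 ± 4.24% and the shorter Abcg1-204 at 44.0 ± 5.57% of TPM, while by counts Abcg1-201 held 85.2 ± 1.99%.

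By mean share of TPM, the leading transcripts of the remaining genes were all coding. Scap-201 took 78.8 ± 6.82% of its gene's TPM, with the rest spread over minor forms. Dhcr7-202 took 73.9 ± 27.8%, ahead of Dhcr7-210 at 12.5 ± 11.1%, but by posterior mean TPM they held 27.4% and 13.4%. Cyp51-201 took 69.3 ± 6.23% ahead of Cyp51-202 at 17.1 ± 2.11%, and Acly-207 took 64.6 ± 2.90% ahead of Acly-203 at 25.2 ± 2.02%. Hmgcs1-201 took 61.1 ± 1.44% ahead of Hmgcs1-202 at 27.1 ± 2.66%, and Fasn-205 took 57.4 ± 5.26% ahead of Fasn-201 at 22.4 ± 0.44%. The division is less certain than these spreads. For Hmgcs1-201 the posterior SD was 154, 140 and 120 on 877, 867 and 842 counts in libraries 1, 2 and 3. For Acly-207 it was 198, 215 and 186 on 4141, 4584 and 3949 counts. Acaca was led in TPM by Acaca-203, a transcript of 1058 bases, with 41.1 ± 7.99%, whereas Acaca-201, of 9026 bases, held most of its counts, 60.3 ± 21.4%.

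In the last 7 genes several transcripts shared the level. Elovl6-205 took 70.5 ± 15.3% of its gene's TPM ahead of Elovl6-202 at 19.4 ± 4.1%, Soat1-201 took 67 ± 9.38% ahead of Soat1-206 at 11 ± 3.04%, and Hsd17b7-201 took 65.9 ± 19.3% ahead of Hsd17b7-203 at 15.6 ± 14.5%. Mvk-201 took 58.8 ± 7.87% ahead of Mvk-207 at 15.2 ± 3.77%, and Elovl1-203 took 43.4 ± 1.86% ahead of Elovl1-207 at 28.6 ± 8.74%. For Insig2 the leader Insig2-201 had 45.6 ± 10.4% and Insig2-214 24.8 ± 19.2%, and for Tm7sf2 the leader Tm7sf2-201 had 38.9 ± 20.7% and Tm7sf2-213 15 ± 14.2%. In library 3 Insig2-201, at 34.2%, was below Insig2-214, at 36.2%. In the same library Tm7sf2-201, at 15.6%, was below Tm7sf2-213 at 16.5%, Tm7sf2-204 at 17.5% and the coding Tm7sf2-202 at 23.8%. Tm7sf2-202 had 0 in libraries 1 and 2. Tm7sf2-204 and Tm7sf2-202 are named after their values were seen. By posterior mean TPM, Tm7sf2-201 held 10.5% of its gene, beside 9.70% for Tm7sf2-202 and 9.17% for Tm7sf2-204.

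The libraries differed from one another by more than counting noise in many of these genes. A chi-square test of the estimated counts against the scaled library sizes, adjusted over all genes by Benjamini-Hochberg at 0.05, called 23 of the 33 genes tested, or 69.7%, beside 57.2% of all 13949 genes tested. The share among these genes is thus to be read against a background in which most genes were called. Relative spread was modest: the highest library exceeded the lowest by a median of 1.22 times over the 33 genes and 1.28 times over all genes tested. By role, the test called 4 of 5 regulators, 4 of 7 genes up to farnesyl diphosphate, 8 of 11 from squalene on, 3 of 3 for fatty acid synthesis, 3 of 4 desaturases and elongases and 1 of 3 for esterification and export. Of the 33 genes, library 2 was the highest in 15, or 45.5%, beside 42.2% of all genes tested. Library 1 was the highest in 8, or 24.2% beside 30.5%, and library 3 in 10, or 30.3% beside 27.3%. Without library 2 the test called 10 of the 33 genes, or 30.3%, beside 27.5% of all genes tested. Without library 1 it called 13, or 39.4%, beside 43.6%, and without library 3 it called 19, or 57.6%, beside 42.3%. The share among these genes was thus above that of all genes in 2 of these 3 fits, which share libraries, and below it in the other. Each of the 33 genes had at least 214 counts in all, whereas the background begins at 30. Of all genes with at least 100 counts, the test over 3 libraries called 61.9%.

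After the statistic was divided by its median inflation over all genes, which takes the typical excess between these libraries as the yardstick, 4 genes were still called, or 12.1%, beside 4.45% of all genes. They were Fasn with an adjusted p of 7.3e-05, Srebf2 with 0.016, Acly with 0.0189 and Elovl5 with 0.0398. The last 3 are the most abundant of the 34 genes and were highest in library 2, by 1.21, 1.16 and 1.20 times the lowest library. Comparing libraries 1 and 3 alone, the plain test gave adjusted p-values of 0.963 for Srebf2, 0.961 for Acly and 0.0909 for Elovl5, so that their differences rest on library 2.

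Fasn moved the other way and furthest beyond counting noise. Its estimated counts were 2294, 1298 and 1742, and after scaling the highest library exceeded the lowest by 1.58 times, with an adjusted p of 2.99e-37 by the plain chi-square test. Libraries 1 and 3 alone also differed, with an adjusted p of 8.75e-06. Abca1 had the largest ratio, 3.47 times between libraries 1 and 2, at an adjusted p of 6.62e-10, which became 0.299 after division by the median inflation.

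Library 2 differed from the others with the length of the gene, and the values are given beside the result. Its scaled count minus the mean of libraries 1 and 3 had a median of -0.13 on the log2 scale over 224 genes with an effective length above 6000 bases, and of 0.07 over 10017 shorter genes. The shortest genes were low too, with a median of -0.19 over 330 genes of up to 500 bases. Fasn, with an effective length of 7159 bases, was at -0.55, Abca1, with 10213 bases, at -1.54, and Acaca, with 4262 bases, at -0.35. These 3 lay below the median of genes of their length, which was -0.12 between 6000 and 8000 bases, -0.18 above 8000 bases and 0.01 between 4000 and 5000 bases. When the expected shares were centred on genes of like length, a step added after the data were seen, 19 of the 33 genes were called beside 52.9% of all genes, and Fasn stayed called with an adjusted p of 2.45e-22. With the inflation divided out as well, Fasn alone was called, at 0.00458, beside 2.88% of all genes.

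**Figure D4:**
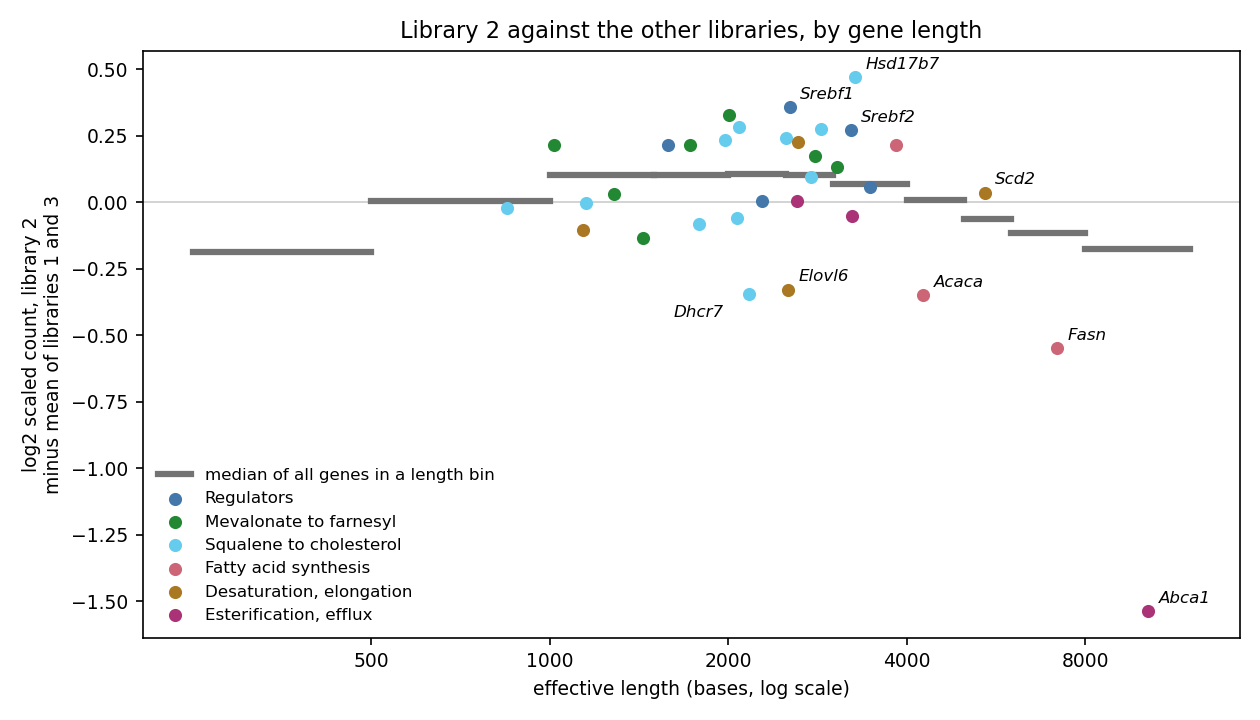
Log2 scaled count of library 2 minus the mean of libraries 1 and 3 for the 33 genes tested, against effective length in bases on a log scale, with grey bars at the median of all genes in each length bin; the last bin has no upper limit. Abca1 at -1.54 and Fasn at -0.55 lie below the bars for their length, and Srebf1, Srebf2 and Hsd17b7 lie above theirs.

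The same test was read in the related lists. It called 12 of 13 genes tested for other sterol sensing, 11 of 13 for the isoprenoid branches, 8 of 16 for other fatty acid genes and 8 of 12 for cholesterol handling, beside the 57.2% of all genes. Among the cell type markers it called 3 of 6 alpha-beta T cell genes, 2 of 4 proliferation genes and Lep, with 36 counts in all.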

How the data were processed

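PolyA RNA-seq of CD4+ effector memory T cells of 1 mouse gave 3 libraries, technical replicates per the labels and therefore 1 group; all 3 entered every analysis and no group comparison exists. The authors deposited, per library, gene and transcript tables on mm10 with GENCODE M21. The values in them are, per the file headers, expected counts (estimated counts that divide ambiguous reads), TPM, FPKM and posterior mean TPM, and a posterior standard deviation of each count, treated here as a score of assignment uncertainty. A further deposited table per library holds whole-number counts of GENCODE M4 genes, from a separate alignment per the submitters' accompanying notes. The sources used here name no aligner, quantifier, library kit, cell sort or strand setting.

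Rows that name no mouse gene (0.188% to 0.579% of estimated counts, nearly all phiX) were left out. Expected counts were rounded and library sizes scaled by TMM (edgeR 4.0.16 in R 4.3.3). Genes with at least 30 counts in all were tested for homogeneity over the libraries by chi-square with Benjamini-Hochberg adjustment at 0.05 over all genes tested, a test of technical differences. The code was checked on simulated counts. Alternatives used DESeq2 1.42.0 size factors, unscaled totals, other count limits, the GENCODE M4 counts, division by the median inflation and 1 library left out. Levels, transcript shares and ratios are TPM values per library with mean ± SD, without a test. A count of 0 was given a limit of 3 counts per library. Positions, exon overlaps and transcript sequences came from GENCODE M21, and promoters from RefSeq on GRCm38.p6. Scaled counts had 0.5 added before log2 library differences.

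All 34 members are named. Of each list of other pathway genes the 3 with the highest mean TPM are named, with any cell type marker, the leading transcript of each member and a further one where the leader took under 80%. Genes outside this rule are Nr1h3, Scd3, Scd4, Acat3, Gm43738, Gm13502, Gm48342, Ctsb, Akap9 and Vps51, named for their relation to a member. The members and lists were chosen with earlier results of these data known.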

Additional observations from a re-analysis of the deposited data

How the results depend on the processing

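The count of genes that differed between libraries depended on the yardstick. Beside 23 of 33 (57.2% of all genes tested), it was 8 with the fewer GENCODE M4 counts (27.2% of all genes), 4 with the statistic divided by its median inflation (4.45%) and 1 with length bins and inflation together (2.88%), an alternative added after the data were seen; leaving out 1 library gave 10 to 19 (27.5% to 43.6%). DESeq2 size factors gave 22 (57.3%), totals 19 (54.5%), at least 100 counts 23 (61.9%), a limit of 1 count 19 (25.9%) and length bins 19 (52.9%). The count of genes at 1 TPM in every library was 32 or 33, and that at a mean of 100 TPM between 2 and 4, under every alternative run. With posterior mean TPM, the median of the squalene to cholesterol genes was 14.5 TPM instead of 16.4, that of the esterification and export genes 16.3 instead of 18.3, and the Insig1 over Insig2 log2 ratio 1.00 instead of 1.35; the other 4 group medians moved by less than 1 SD. Over single levels, 16 of 34 genes moved by more than 1 SD with that estimate. Counts not divided by length gave log2 ratios of 1.74 for Srebf2 over Srebf1, 1.89 for Insig1 over Insig2, 2.93 for Abcg1 over Abca1 and 7.32 for Scd2 over the limit for Scd1. The GENCODE M4 counts gave 1.01, 2.20 and 4.89 for the last 3 pairs. A pseudocount of 1 TPM gave 3.40 for Abcg1 over Abca1 and 3.42 for Scd2 over Scd1, and one of 0.1 TPM gave 6.61 for the latter; these are no bounds. Leaving out 1 of 3 libraries always moves a mean by less than 1 SD, so that alternative could not test the log2 ratios by this measure. No ratio changed sign under the alternatives run. Genes with 1 transcript at 80% numbered 9 by TPM, 8 by posterior mean TPM, 13 by counts and 10 to 12 without 1 library. Single shares moved more than this count shows. By posterior mean TPM, Dhcr7-202 had 27.4% instead of 73.9%, and Tm7sf2-201 had 10.5% instead of 38.9%. No paired analysis was possible because there is 1 group of technical replicates. Depth limits Scd1, Abca1 and the genes under 10 TPM most; the cause of the differences between settings was not tested.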

Other observations

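The GENCODE M4 table, made by the authors from a separate alignment, counted a very different part of the reads for some of these genes. Over 8581 genes with at least 300 estimated counts, it held a median of 51.0% of the estimated count, with the tenth and ninetieth percentiles at 17.5% and 78.5%. Over the 28 genes of the programme at that depth the median was 46.3%. Idi1 stood far below, with 5, 14 and 18 counts in that table beside 909, 1005 and 968 estimated counts, or 1.28%. Acat2 kept 15.5%, Scd2 18.6%, Elovl5 22.1% and Insig1 22.4%, whereas Srebf1 kept 80.3%, Fasn 81.0% and Abca1 80.6%. Idi1 and Acat2 are among the members that share much sequence with other genes, 30.5% and 45.9% of their 50-base words, but Elovl5 shared none. The part of shared sequence in these differences was not tested.

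In Sc5d the split between the coding transcripts Sc5d-202 and Sc5d-201 was 88.8 ± 0.02% against 11.2 ± 0.02% of TPM. This ± is the spread between libraries only. The posterior SD of Sc5d-202 was 14.9, 18.8 and 17.6 on 791, 822 and 691 counts in libraries 1, 2 and 3.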
